A study of Mus musculus with 6 samples.

Results

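Nuclear receptors are among the best known partners of CBP, and this account follows 8 of their genes, Nr3c1, Nr3c2, Rara, Rarb, Rxra, Thra, Thrb and Rora, together with Fkbp5 and Sgk1, 2 genes that corticosteroids induce. These 10 genes were chosen by name from the 55471 genes of the count table, and all 10 passed the filter on low counts, as did 17981 genes in all. RNA-seq was performed on hippocampal total RNA in 6 libraries, 3 from CBP-ifKO mice and 3 from Control littermates, on a C57BL/6 background and at 3 to 6 months of age. CBP-ifKO mice carried the floxed Crebbp allele (Crebbp_flox) and the Camk2a_creERT2 driver, a tamoxifen-dependent Cre recombinase under the Camk2a promoter, which is active in forebrain excitatory neurons. Control mice were littermates without the driver according to the treatment notes, although a description field of the labels gives Camk2a_creERT2, without a floxed allele, for them. Both groups had received tamoxifen by gavage, 5 times on alternate days at 20 mg/ml. Per the study's methods each library was made from the pooled hippocampi of several females, and the recombined allele still encodes a truncated CBP protein. Interneurons, glia and vascular cells lie outside the reach of the driver.

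Nuclear receptors are transcription factors that bind small lipophilic ligands and DNA, and, when bound by an agonist, they exchange corepressor complexes for coactivators, among them the p160 proteins, CBP and p300. The hippocampus is known for its dense supply of corticosteroid receptors: the mineralocorticoid receptor (Nr3c2) is occupied at low corticosterone and the glucocorticoid receptor (Nr3c1) when the hormone rises. Retinoic acid receptors and thyroid hormone receptors act as heterodimers with retinoid X receptors and are linked to synaptic plasticity and to the maturation of hippocampal neurons.

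Total counts lay between 10199008 and 14950257 per library. The target gene Crebbp stood at 156.4 to 209 CPM (counts scaled to library size with TMM factors) in Control and 87.1 to 108.6 CPM in CBP-ifKO, a log2 fold change of -0.96 ± 0.10 (with SE, adjusted p = 3.63e-05, edgeR). Esr1, part of whose coding sequence is carried by the creERT2 driver, ranged from 5.65 to 6.29 CPM in Control and from 63.6 to 69.4 CPM in CBP-ifKO, and Arsi, a gene next to Camk2a, from 0.47 to 0.94 and from 4.67 to 6.34 CPM. The levels of these 3 genes followed the group labels in every library. The libraries differed in how counts depended on the GC content of a gene: the slope of log2 CPM per 10 points of GC was 0.144 in Control replicate 2 and -0.117 in CBP-ifKO replicate 2, and between -0.026 and 0.039 in the other 4 libraries.

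The comparison of CBP-ifKO with Control mice asked which genes differ after CBP is removed from excitatory neurons of the adult brain. Since Control mice lacked the driver according to the treatment notes, effects of the driver and of CBP loss cannot be told apart in these 6 libraries. Of the 10, 4 were lower in CBP-ifKO and 0 were higher (edgeR quasi-likelihood test, adjusted p under 0.05 over all genes tested), namely the retinoic acid receptor gene Rara, the mineralocorticoid receptor gene Nr3c2 and both thyroid hormone receptor genes, Thra and Thrb. Across all genes tested, 6.39% passed the threshold in either direction, 4.99% being lower and 1.4% higher. The glucocorticoid receptor gene Nr3c1, its targets Fkbp5 and Sgk1, Rarb, Rxra and Rora did not pass it. At an unadjusted p under 0.05 (edgeR) only Rora was added, a threshold met by 3816 of the 17981 genes tested. DESeq2 called the same 4 genes, against 6.17% of all genes that received an adjusted p from it (4.94% lower, 1.23% higher). Negative log2 fold changes, past the threshold or not, were found for 9113 of the 17981 genes in the edgeR fit. The genotypes did not overlap for 5 of the 10, the 4 genes called, which were lower, and Rora, which was higher, against 25.6% of all genes tested (13.9% lower, 11.8% higher). Because hippocampal tissue was sequenced in bulk, fewer cells of a type and less RNA per cell cannot be told apart in any of these values.

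**Figure D1:**
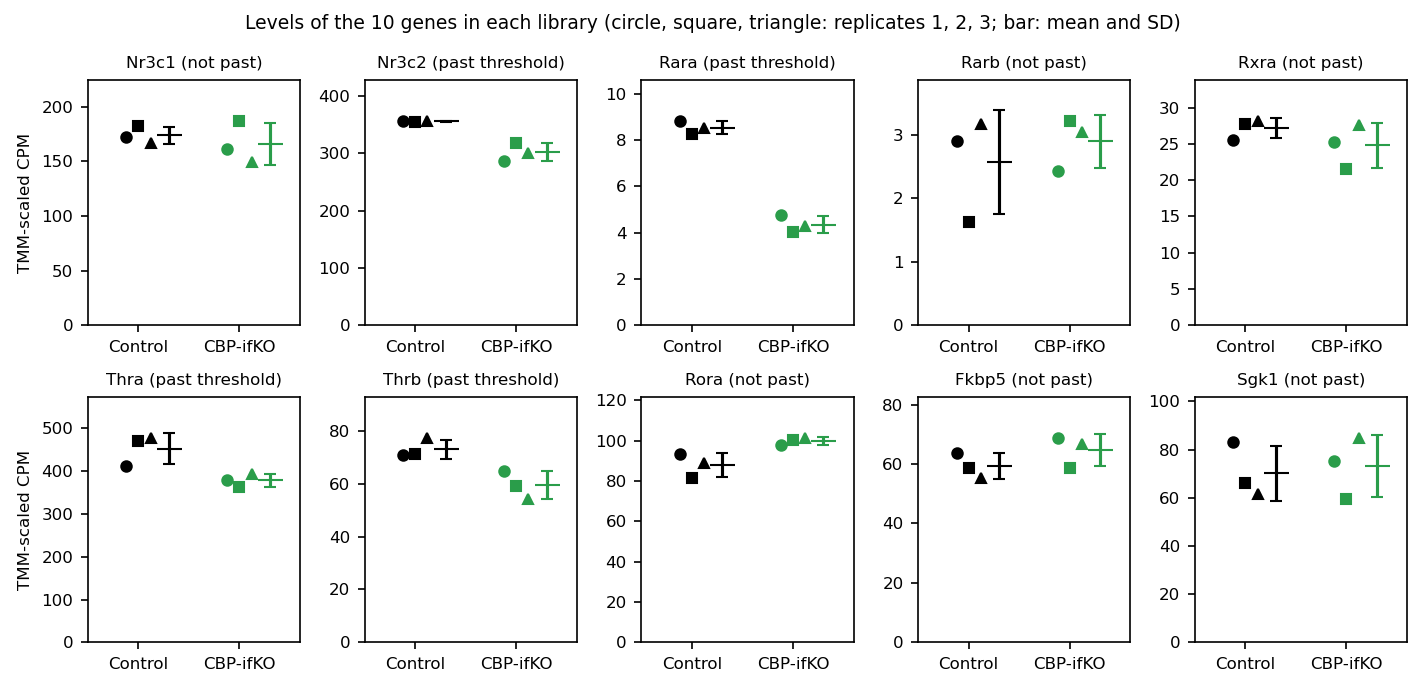
TMM-scaled CPM (y axes, from 0) of the 10 genes in each of the 3 Control (black) and 3 CBP-ifKO (green) libraries; symbols mark replicates and bars the mean with its SD. The CBP-ifKO libraries lie below all Control libraries for Nr3c2, Rara, Thra and Thrb, above them for Rora, and among them for the other 5 genes.

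Rara, which encodes retinoic acid receptor alpha (ENSMUSG00000037992, GRCm38 chr11:98927818-98974942, protein coding), showed the largest change of the 10. It was measured at 8.83, 8.25 and 8.53 CPM in Control and 4.75, 4.01 and 4.28 CPM in CBP-ifKO, in the order of replicate numbers used for all values that follow. The 6 libraries thus formed 2 tight groups, and the mean of 8.53 ± 0.29 CPM fell to 4.35 ± 0.37 CPM (SD, n = 3), leaving 50.9% of it. The estimated log2 fold change was -0.98 ± 0.15 (with SE, adjusted p = 9.98e-04, edgeR). The gene is scarce, with between 49 and 96 counts per library, but it stayed past the threshold in every one of 14 other fits, with log2 fold changes from -1.04 to -0.79, the latter with GC content, gene length and the replicate number taken into account.

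Rarb, the gene of retinoic acid receptor beta and itself a classical target of retinoic acid (ENSMUSG00000017491, chr14:16430839-16819156), did not pass the threshold. Its counts were between 19 and 49 per library, with 2.91, 1.63 and 3.17 CPM in Control and 2.42, 3.22 and 3.04 CPM in CBP-ifKO. Control replicate 2 was the lowest, and the groups overlapped. The log2 fold change was 0.20 with a 95% interval from -0.34 to 0.75 (adjusted p = 0.719, edgeR), so a moderate change in either direction was not detectable at this depth, and the sign turned to -0.04 without Control replicate 2. Of the exon bases of Rarb, 34.1% are shared with Top2b on the opposite strand, and whether the counting used strand was not stated, so part of this low count is uncertain. Rxra, the gene of the heterodimer partner retinoid X receptor alpha (ENSMUSG00000015846, chr2:27676440-27762957), was measured at 25.5, 27.7 and 28.2 CPM in Control and 25.3, 21.5 and 27.6 CPM in CBP-ifKO. Only CBP-ifKO replicate 2 stood clearly lower, and the log2 fold change of -0.14 (95% interval -0.35 to 0.081, adjusted p = 0.492, edgeR) became 0.0067 once GC and length trends were removed.

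Among 18 promoter windows available for 8 of the 10 genes (RefSeq starts, build GRCm38.p6, 250 bases before to 50 bases after a start), that of Rarb held the direct repeat through which retinoic acid receptors are known to act. The motif searched on both strands was GTTCA repeated directly after 6 further bases, which 0.0761% of all 32851 windows hold. The 250 bases before the Rarb start are shown because they hold the single match among the 10 genes, with the repeat in capitals, starting 52 bases before the start site (chr14:16575477-16575726, minus strand):
Rarb promoter: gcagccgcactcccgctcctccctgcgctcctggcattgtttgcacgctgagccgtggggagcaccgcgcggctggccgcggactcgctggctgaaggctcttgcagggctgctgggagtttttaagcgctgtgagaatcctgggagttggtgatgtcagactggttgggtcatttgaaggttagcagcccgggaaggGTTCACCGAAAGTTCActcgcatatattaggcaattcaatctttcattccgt
None of the 4 Rara windows held this repeat. Exact direct repeats of AGGTCA with 5 or 4 bases between them were found in 0 of the 18 windows. These are the spacings read by retinoic acid and thyroid hormone receptors. Read as the hexamers GGTTCA and AGTTCA, the Rarb repeat also has 5 bases between them, but its hexamers are not AGGTCA. The single hexamer AGGTCA was found in 5 of the 18 windows, of Rara, Rxra, Sgk1 and Thrb, against 16.3% of all windows.

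Genes that respond to retinoic acid or handle it were read from lists. Of 18 genes that make, break down or carry the ligands of these receptors, 13 passed the filter and 3 were lower (Aldh1a2, Dio2 and Dio3), with a median log2 fold change of -0.22. Of 8 retinoid targets, 6 passed the filter and 0 passed the threshold (edgeR; 0 also with DESeq2 and at an unadjusted p under 0.05), although 5 of the 6 had negative log2 fold changes and the median was -0.26, against -0.003 for all genes tested. The median was -0.128 without Control replicate 3, -0.145 without CBP-ifKO replicate 2 (4 of 6 negative) and -0.161 with GC and length trends removed (4 of 6 negative). Tgm2, encoding transglutaminase 2, had the lowest value, with a log2 fold change of -0.37 ± 0.19 (with SE, adjusted p = 0.289, edgeR). Of the genes that make the ligand, Aldh1a2, encoding retinaldehyde dehydrogenase 2, fell from 4.51, 3.01 and 3.97 CPM to 0.97, 1.84 and 2.22 CPM. The libraries of the genotypes did not overlap, and the estimated log2 fold change was -1.15 ± 0.27 (with SE, adjusted p = 0.0178, edgeR). The call of Aldh1a2 was lost without Control replicate 1 (adjusted p = 0.0656), Control replicate 3 (0.0698), or CBP-ifKO replicate 1 (0.0614) or 2 (0.0718). Aldh1a2 is scarce, with 10 to 48 counts per library. The more abundant Aldh1a1 averaged 44.5 CPM in Control against 46.9 CPM in CBP-ifKO, and Rdh10 14.2 against 14.0 CPM. Neither of these synthesis genes passed the threshold (0.07 and -0.02 on the log2 scale, edgeR adjusted p = 0.701 and 0.953).

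The thyroid hormone receptor genes were both lower. Thra, which encodes receptor alpha in its hormone-binding form and in a form that does not bind the hormone (ENSMUSG00000058756, chr11:98740638-98769006), was measured at 411, 469.6 and 477 CPM in Control and 379.9, 363 and 392.4 CPM in CBP-ifKO. Control replicate 1 lay nearest to the CBP-ifKO libraries, without overlap. The mean went from 453 ± 36.0 to 379 ± 14.6 CPM (SD, n = 3), 83.6% of the Control level, with a log2 fold change of -0.26 ± 0.064 (with SE, adjusted p = 0.0222, edgeR). Thra is rich in GC (59.8% in its longest transcript), and with GC and length trends removed its log2 fold change was -0.06 (adjusted p = 0.565, edgeR). The call was also lost when Control replicate 3 (0.150) or any CBP-ifKO library was left out (0.0609, 0.117 and 0.0745 for replicates 1, 2 and 3), while without both libraries of steep GC slope it was -0.19 (0.0461).

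Thrb, the gene of thyroid hormone receptor beta (ENSMUSG00000021779, chr14:17660261-18038090), was measured at 70.7, 71.1 and 77.2 CPM in Control and 64.7, 59.2 and 54.2 CPM in CBP-ifKO. All CBP-ifKO libraries were below all Control libraries, and the mean fell from 73.0 ± 3.62 to 59.4 ± 5.26 CPM (SD, n = 3), 81.4% of the Control level. The estimated log2 fold change was -0.30 ± 0.075 (with SE, adjusted p = 0.0252, edgeR). Its transcript is not rich in GC (44.1%), and the value with GC and length trends removed was -0.32 (adjusted p = 0.0127, edgeR). The call was lost when Control replicate 3 (0.152) or CBP-ifKO replicate 2 (0.103) or 3 (0.174) was left out, and with scaling by library totals only (0.0527).

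Exons of Thra overlap those of Nr1d1, the gene of the circadian repressor REV-ERB alpha, on the opposite strand, over 263 bases, which is 5.70% of the exon bases of Thra and 8.55% of those of Nr1d1. Nr1d1 also fell, from 39.9, 32.0 and 39.7 CPM to 24.7, 23.3 and 24.1 CPM, with a log2 fold change of -0.63 ± 0.097 (with SE, adjusted p = 9.36e-04, edgeR) that stayed past the threshold in every other fit. Since it was not stated whether the counting used strand, reads in the shared bases cannot be assigned to one of the pair.

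Genes that handle thyroid hormone or respond to it were compared next. Dio2, encoding the deiodinase that activates thyroxine and is found mainly in astrocytes in brain, fell from 86.1, 75.2 and 84.5 CPM to 63.5, 68.0 and 69.9 CPM (log2 fold change of -0.29 with an SE of 0.072, adjusted p = 0.0244, edgeR). Dio3, encoding the deiodinase that inactivates the hormone, fell from 2.82, 2.66 and 2.68 CPM to 1.45, 1.51 and 1.56 CPM (-0.84, SE 0.24, adjusted p = 0.0473, edgeR). The groups overlapped for neither gene, and the transporter gene Slco1c1 (-0.22, adjusted p = 0.0944, edgeR) did not pass the threshold. Slco1c1 was called as lower with GC and length trends removed, with or without the replicate number taken into account, but in no other fit. Of 8 genes listed as thyroid hormone targets, 7 passed the filter, all 7 had negative log2 fold changes and 3 passed the threshold, with a median of -0.26. The median was -0.086 without Control replicate 2, -0.412 without Control replicate 1, -0.092 without both replicates 2 (5 of 7 negative) and -0.105 with GC and length trends removed (6 of 7 negative). The genes called were Dio3, Nrgn, which encodes the postsynaptic calmodulin-binding protein neurogranin, and Thrsp, a regulator of lipid synthesis. Nrgn was measured at 176.4, 223 and 202 CPM in Control and 132.3, 102.9 and 127.5 CPM in CBP-ifKO (a log2 difference of -0.73 with an SE of 0.092, adjusted p = 1.76e-04, edgeR), and it was called in every other fit. Dio3 was called in 1 other fit only (RLE scaling) and received no adjusted p from DESeq2. Thrsp (-0.39, adjusted p = 0.0291, edgeR) was not past the threshold with DESeq2 (0.0677), scaling by library totals (0.0507), when Control replicate 3 (0.136) or CBP-ifKO replicate 2 (0.154) or 3 (0.136) was left out, or without both replicates 2 (0.0997). The call of Dio2 was lost under each left-out library other than Control replicate 2, with adjusted p from 0.0713 without CBP-ifKO replicate 3 to 0.128 without Control replicate 3, and with scaling by library totals (0.0558). Mbp, a myelin gene, and Klf9 were at -0.14 and -0.07 and did not pass it (edgeR adjusted p = 0.231 and 0.574).

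The corticosteroid receptors differed in their calls. Nr3c2 (ENSMUSG00000031618, chr8:76899442-77245012) was measured at 356, 355 and 357 CPM in Control and 287, 318 and 302 CPM in CBP-ifKO. The Control libraries were nearly equal and all CBP-ifKO libraries lay below them, with means of 356 ± 1.09 and 302 ± 15.9 CPM (SD, n = 3), so that 84.9% of the Control level remained. The estimated log2 fold change was -0.24 ± 0.057 (with SE, adjusted p = 0.0191, edgeR) and changed little with GC and length trends removed (-0.23, adjusted p = 0.0151, edgeR). The call was lost when Control replicate 3 (0.0961) or CBP-ifKO replicate 1 (0.0835) or 3 (0.117) was left out, and with scaling by library totals (0.0603). Nr3c2 shares 3.82% of its exon bases with Gm10649 on the opposite strand.

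Nr3c1 (ENSMUSG00000024431, chr18:39410545-39519421) was measured at 172.4, 182.3 and 166.6 CPM in Control and 161.4, 187 and 149.5 CPM in CBP-ifKO. CBP-ifKO replicate 2 was the highest library of all and replicate 3 the lowest, and the log2 fold change of -0.06 had a 95% interval from -0.22 to 0.093 (adjusted p = 0.684, edgeR). A change of the size measured for Nr3c2 lay outside that interval by a small margin. Whether the receptors differ from each other was asked of their ratio within each library, per exon length (RPKM), which does not depend on library scaling. The ratio of Nr3c2 to Nr3c1 was 2.45, 2.31 and 2.54 in Control and 2.11, 2.02 and 2.40 in CBP-ifKO. The groups overlapped, and an exact permutation test (two-sided) gave p = 0.2, where 0.1 is the smallest p that 3 against 3 libraries allow (adjusted p = 0.4 over 6 ratios). As no p under 0.1 was possible, this test could not decide whether Nr3c1 and Nr3c2 differ in response, and no difference was shown.

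Fkbp5 and Sgk1 are used as readouts of corticosteroid signalling, Fkbp5 as a cochaperone that lowers the affinity of the glucocorticoid receptor for its ligand and Sgk1 as a kinase induced by hormone and by other stimuli. Fkbp5 (ENSMUSG00000024222, chr17:28399094-28517527) was measured at 63.8, 58.7 and 55.1 CPM in Control and 68.7, 58.5 and 66.8 CPM in CBP-ifKO. Its groups overlapped through CBP-ifKO replicate 2, and the log2 fold change was 0.12 (95% interval -0.045 to 0.29, adjusted p = 0.410, edgeR). Sgk1 (ENSMUSG00000019970, chr10:21882184-21999903) was measured at 83.1, 66.0 and 61.5 CPM in Control and 75.3, 59.5 and 84.8 CPM in CBP-ifKO. CBP-ifKO replicate 2 was the lowest and CBP-ifKO replicate 3 the highest library, the log2 fold change was 0.06 (95% interval -0.19 to 0.30, adjusted p = 0.845, edgeR), and its sign turned without Control replicate 3 (-0.03) or CBP-ifKO replicate 3 (-0.06). Neither gene passed the threshold in any of the 14 other fits.

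Of the 18 promoter windows, 1 of the 6 of Sgk1 held the palindrome of AGAACA and TGTTCT with 3 bases between them (both strands searched), the element that binds corticosteroid receptor dimers, which 0.00913% of all windows hold (3 of 32851). The 250 bases before that start are shown because they hold the single match among the 10 genes, with the palindrome in capitals, starting 189 bases before the start site (chr10:21993640-21993889, plus strand):
Sgk1 promoter: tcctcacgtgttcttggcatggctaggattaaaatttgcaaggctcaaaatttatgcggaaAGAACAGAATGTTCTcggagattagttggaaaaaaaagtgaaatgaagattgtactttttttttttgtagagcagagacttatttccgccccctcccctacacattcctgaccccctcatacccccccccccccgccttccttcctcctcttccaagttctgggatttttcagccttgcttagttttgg
Counts over the whole gene do not show which of the Sgk1 starts was used.

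Beyond Fkbp5 and Sgk1, 22 further genes known to rise with glucocorticoids were read, all of which passed the filter. Of them 2 were lower and 0 higher past the threshold, 15 had negative log2 fold changes, and the median was -0.09. The median was -0.032 without CBP-ifKO replicate 2 and -0.044 with scaling by library totals, and without both replicates 2 it turned to 0.009, with 9 values negative and 13 positive. Those called were Per1, a clock gene with a glucocorticoid response element, and Dusp1, a MAP kinase phosphatase. Per1 was measured at 35.1, 34.5 and 37.0 CPM in Control and 30.1, 19.8 and 28.4 CPM in CBP-ifKO (a log2 difference of -0.46 with an SE of 0.12, adjusted p = 0.0327, edgeR). CBP-ifKO replicate 2 was the lowest, and Per1 was no longer called without it (0.141), without CBP-ifKO replicate 3 (0.0623), Control replicate 1 (0.0577) or Control replicate 3 (0.134), without both replicates 2 (0.0585), nor with GC and length trends removed (-0.27, 0.150). Dusp1 fell from 8.17, 9.10 and 7.24 CPM to 5.14, 4.86 and 5.84 CPM (log2 fold change of -0.64 with an SE of 0.16, adjusted p = 0.0218, edgeR), a call lost with DESeq2 (0.0719) and without CBP-ifKO replicate 1 (0.0602), CBP-ifKO replicate 2 (0.122) or Control replicate 2 (0.0589), and without both replicates 2 (0.141). Tsc22d3, encoding the leucine zipper protein GILZ, and Zbtb16, often used as glucocorticoid readouts, did not pass the threshold, with 71.4, 57.4 and 53.4 against 57.9, 62.7 and 66.3 CPM for Tsc22d3 (log2 fold change of 0.04 with an SE of 0.093, adjusted p = 0.870, edgeR) and 99.4, 75.8 and 90.1 against 86.2, 60.9 and 82.3 CPM for Zbtb16 (-0.22, SE 0.11, adjusted p = 0.290, edgeR).

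Both Dusp1 and Dio2 hold the full cAMP response element TGACGTCA, which CREB binds and through which CBP was named, in a promoter window, as do 1.79% of all windows. The 40 bases around it are shown, with the element in capitals, for these 2 genes because both were called (Dusp1, chr17:26508592-26508631, minus strand; Dio2, chr12:90739110-90739149, minus strand):
Dusp1 promoter: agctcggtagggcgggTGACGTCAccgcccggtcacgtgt
Dio2 promoter: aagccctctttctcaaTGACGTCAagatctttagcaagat
The full element was also found in windows of 3 listed genes that were not called, the nuclear receptor genes Nr2e1 (log2 fold change -0.08) and Nr6a1 (0.20) and the glucocorticoid target Errfi1 (-0.02), and in 0 of the 18 windows of the receptor genes, Fkbp5 and Sgk1. Its shorter form TGACG, which the full element contains, was present in 4 of the 18 windows, of Rara, Sgk1 and Thrb, against 20.8% of all windows.

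Rora, which encodes the retinoic acid receptor-related orphan receptor alpha, an activator of clock genes (ENSMUSG00000032238, chr9:68653786-69388246), pointed the other way. It was measured at 93.6, 81.6 and 89.0 CPM in Control and 97.7, 100.3 and 101.3 CPM in CBP-ifKO. All CBP-ifKO libraries were above all Control libraries, with a log2 fold change of 0.18 (SE 0.066, unadjusted p = 0.0145), but the adjusted p of 0.119 (edgeR) missed the threshold, as it did in each other fit (0.0537 to 0.271). Its paralogue Rorb was measured at 51.8, 47.3 and 58.1 CPM in Control and 44.1, 49.5 and 44.7 CPM in CBP-ifKO (a log2 difference of -0.18 with an SE of 0.084, adjusted p = 0.228, edgeR).

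**Figure D2:**
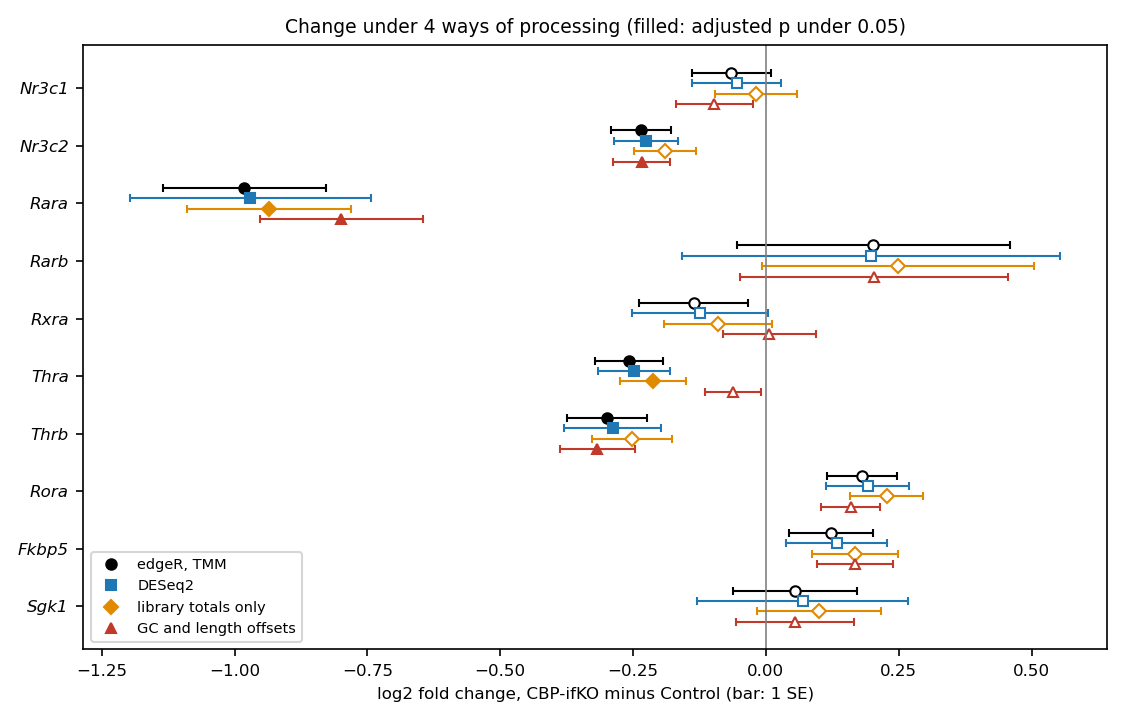
Log2 fold change of CBP-ifKO against Control (x axis) for the 10 genes (y axis) with 1 SE, from edgeR with TMM scaling, DESeq2, edgeR scaled by library totals, and edgeR with GC and length offsets; filled symbols have an adjusted p under 0.05. Rara is called in all 4, at -0.98 to -0.80, and Thra moves from -0.26 to -0.06 with the offsets.

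Ratios within a library were also taken for the dimer partners and the thyroid hormone receptors. The ratio of Rara to Rxra was 0.499, 0.429 and 0.437 in Control and 0.271, 0.269 and 0.224 in CBP-ifKO, without overlap (log2 difference -0.84, exact permutation p = 0.1, the smallest possible, adjusted p = 0.3). That of Thra to Thrb was 9.34, 10.6 and 9.92 in Control and 9.42, 9.84 and 11.6 in CBP-ifKO, with overlap (log2 difference 0.04, exact permutation p = 0.7). The ratio of Rara to Rarb separated the genotypes as well, at 3.24 to 6.09 in Control and 1.502 to 2.364 in CBP-ifKO (exact permutation p = 0.1), whereas those of Fkbp5 and of Sgk1 to Nr3c1 overlapped (exact permutation p = 0.4 and 0.7). Ratios do not depend on library scaling, but they keep the GC trends of the libraries. Thra and Thrb differ in GC (59.8% and 44.1%), as do Rara and Rarb (59.2% and 47.8%). With GC and length trends removed, log2 fold changes were -0.06 for Thra and -0.32 for Thrb. For Rara and Rarb they were -0.80 and 0.20. Replicates 2 gave the highest Control and the lowest CBP-ifKO ratio of Rara to Rarb. With this number of libraries none of the 6 ratios could pass a threshold of 0.05.

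**Figure D3:**
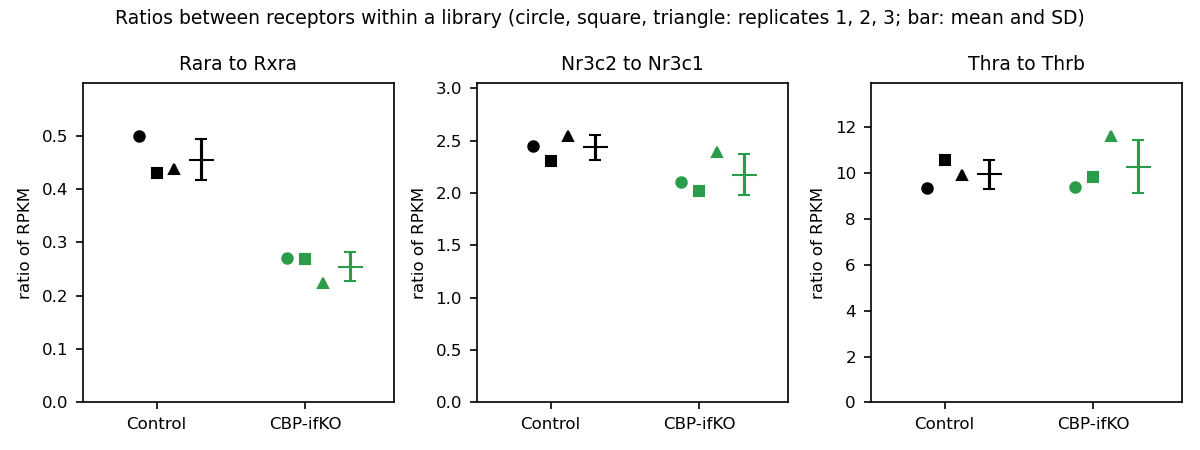
Ratio of RPKM (CPM per kilobase of exon) of 2 receptor genes within each library (y axes, from 0), for 3 Control (black) and 3 CBP-ifKO (green) libraries, with mean and SD. The ratio of Rara to Rxra separates the genotypes (0.429 to 0.499 against 0.224 to 0.271), while those of Nr3c2 to Nr3c1 and of Thra to Thrb overlap.

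Per exon length, levels over the 6 libraries were ordered as Thra (78.7 to 103.4 RPKM), Nr3c2 (44.3 to 55.1), Nr3c1 (19.5 to 24.3), Sgk1 (12.1 to 17.3), Thrb (7.33 to 10.4), Rora (6.24 to 7.75), Fkbp5 (5.82 to 7.26), Rxra (3.41 to 4.47), Rara (0.918 to 2.02) and Rarb (0.31 to 0.612). The ranges of Thrb and Rora and of Rora and Fkbp5 overlapped, and those of the other neighbours did not. The receptor genes with a detected decrease therefore included the most abundant of the 10 and one of the rarest.

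The other 41 nuclear receptor genes of the mouse were read in the same fit. Of these, 28 passed the filter, and the 13 that did not, among them the liver and steroidogenic receptors Hnf4a, Nr1h4, Nr0b2 and Nr5a1, reached at most 0.775 CPM in any library. Negative log2 fold changes were found for 24 of the 28, against 9113 of all 17981 genes tested, with a median of -0.18. The median moved to -0.115 without CBP-ifKO replicate 2 and to -0.06 with GC and length offsets (21 of 28 negative in each). With the offsets 8412 of 17956 genes were negative. Past the threshold, 2 were lower and 1 higher. The higher one was Esr1, where reads of the driver count toward the gene (log2 fold change of 3.45 with an SE of 0.097, adjusted p = 7.90e-13, edgeR). The lower ones were Nr1d1, given with Thra, and Nr4a2, an activity-regulated orphan receptor also known as Nurr1. Nr4a2 was measured at 36.8, 45.3 and 39.7 CPM in Control and 33.2, 24.6 and 25.6 CPM in CBP-ifKO (a log2 difference of -0.56 with an SE of 0.11, adjusted p = 0.00557, edgeR), and its call was lost when CBP-ifKO replicate 2 (0.0559) or 3 (0.0521) was left out. The retinoid receptor paralogues Rxrb (-0.11, SE 0.089, adjusted p = 0.506, edgeR), Rxrg (-0.45, SE 0.25, adjusted p = 0.309, edgeR) and Rarg (-0.08, SE 0.16, adjusted p = 0.836, edgeR) did not pass it. Rarg, at 6.95, 6.10 and 7.93 CPM in Control and 7.07, 5.78 and 7.08 CPM in CBP-ifKO, overlapped between the genotypes, and per exon length it ranged from 1.36 to 1.86 RPKM, within the range of Rara. Its sign and that of Rxrb turned with GC and length trends removed (0.09 and 0.12).

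**Figure D4:**
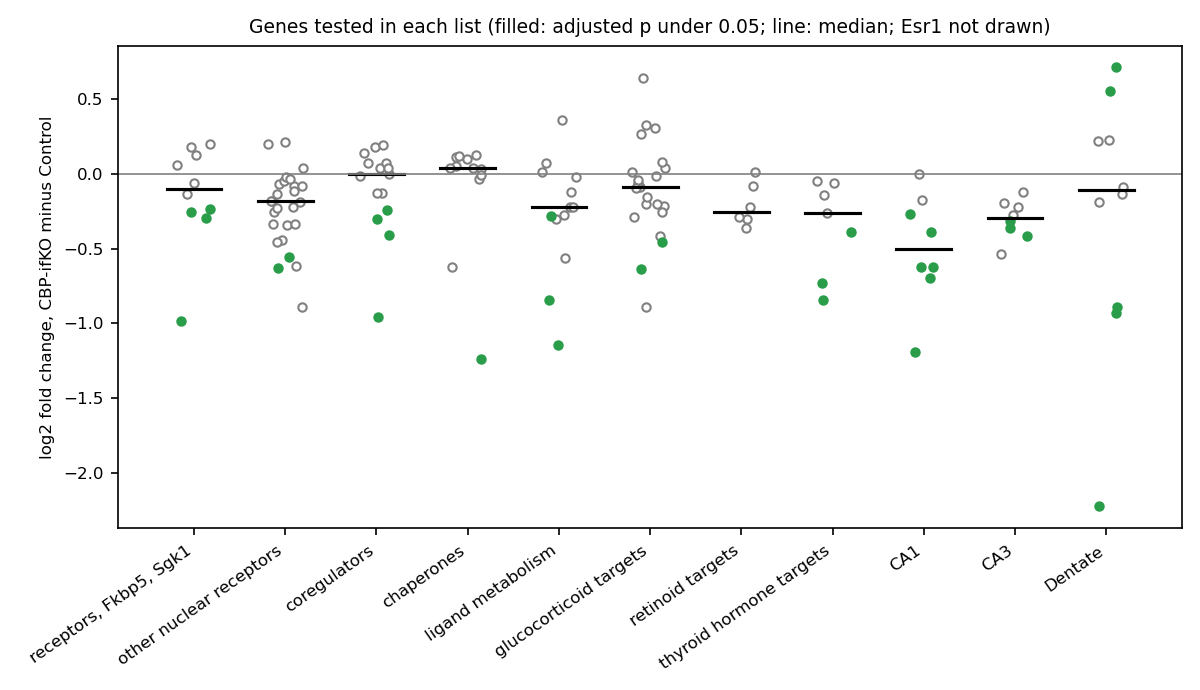
Log2 fold change of CBP-ifKO against Control (y axis) of each gene tested in the lists named on the x axis; green points passed an adjusted p of 0.05 and lines are medians (Esr1, at 3.45, is left out of the points). Values of the other nuclear receptors are mostly below 0 (24 of 28), those of the 10 genes are divided (6 below, 4 above), and the median of the CA1 markers is -0.51.

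Coregulators are the proteins that receptors recruit. Of 15 tested, 4 were lower and 0 higher, with a median log2 fold change of -0.001, which ranged from -0.059 without Control replicate 2 to 0.045 with library totals. Among the lower genes were Crebbp itself, Tbl1xr1, a subunit of a corepressor complex, and Nrip1, encoding the ligand-dependent corepressor RIP140. Tbl1xr1 was measured at 223, 214 and 218 CPM in Control and 187, 186 and 182 CPM in CBP-ifKO (a log2 difference of -0.24 with an SE of 0.055, adjusted p = 0.0143, edgeR), and Nrip1 at 123, 105 and 123 CPM against 99.04, 94.0 and 92.0 CPM (-0.30, SE 0.072, adjusted p = 0.0183, edgeR). Tbl1xr1 and Nrip1 kept their calls with GC and length trends removed (0.00434 and 0.00425), but Tbl1xr1 was not called without Control replicate 3 (0.0751) or CBP-ifKO replicate 3 (0.114), nor with scaling by library totals (0.0504), and Nrip1 not without Control replicate 1 (0.0681), Control replicate 3 (0.122), or CBP-ifKO replicate 2 (0.0847) or 3 (0.119). The p160 coactivator genes Ncoa1, Ncoa2 and Ncoa3, like Ep300, the gene of the CBP paralogue p300, did not pass the threshold.

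Among 12 chaperone genes of the complex that holds steroid receptors ready for ligand, 1 was lower and 0 were higher, with a median log2 fold change of 0.04 (0.013 without Control replicate 1, 0.08 without Control replicate 2). Hspa1b, encoding inducible HSP70, was measured at 4.13, 5.84 and 2.38 CPM in Control and 1.74, 1.38 and 2.22 CPM in CBP-ifKO (a log2 difference of -1.24 with an SE of 0.30, adjusted p = 0.0207, edgeR). Control replicates differed among themselves by more than the distance between the nearest libraries of the genotypes, its near-identical neighbour Hspa1a stood at -0.63 (adjusted p = 0.224, edgeR), how reads matching both were counted is uncertain, and the call was lost without Control replicate 2 (0.0835), or CBP-ifKO replicate 1 (0.0564) or 2 (0.141), and without both replicates 2 (0.212). Hsp90ab1 and Fkbp4, a cochaperone that counteracts Fkbp5, had log2 fold changes of -0.04 and 0.10 and did not pass the threshold (edgeR adjusted p = 0.773 and 0.428).

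Markers of hippocampal cell types were read beside these values. Of 8 CA1 markers, 6 were lower, and their summed level was 689.7 to 721 CPM in Control and 503.6 to 526 CPM in CBP-ifKO. Of 8 CA3 markers, 3 were lower (533 to 566 against 415 to 447 CPM), and of 10 dentate markers 3 were lower and 2 higher (592 to 629.6 against 623 to 672 CPM). Of 8 interneuron markers 2 were lower (705 to 724 against 646 to 688 CPM), and of 7 striatal markers 6 were tested and 1 was higher (39.9 to 46.0 against 38.7 to 42.1 CPM). None of the markers of astrocytes, oligodendrocytes, microglia, endothelium, choroid plexus or thalamus passed the threshold (edgeR, and DESeq2 as well), though the summed astrocyte level, 1818 to 1872 CPM in Control and 1681 to 1766 CPM in CBP-ifKO, did not overlap, and no listed marker was at 0 in all libraries. The part of region or cell-type markers in the decreases of Rara, Nr3c2, Thra and Thrb was not tested.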

How the data were processed

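Hippocampal RNA of 3 Control and 3 CBP-ifKO libraries was sequenced as single-end reads of 50 bases. The authors aligned the reads to GRCm38 with STAR, kept those with a mapping quality above 10 and deposited raw counts per gene over ENSEMBL release 99 exons. The submitters' processing notes name FastQC (0.11.8), Trim Galore (0.6.4), STAR (2.6.1) and DESeq2 (1.30.1). Whether counting used strand is not given in the sources used here.

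Counts were filtered (minimum count 10, minimum total 15), scaled with TMM factors and tested with edgeR 4.0.16 (R 4.3.3), using its quasi-likelihood test on group alone with Benjamini-Hochberg adjustment over 17981 genes. CPM and RPKM were computed from these counts and the exon lengths in the table. Labels do not say that libraries came from separate cohorts, so p-values measure the spread between these libraries, each a pool of animals. Exact permutation tests served for ratios, which were chosen after values had been seen. The 10 genes, the lists and the tests were chosen with earlier results of these data known. Beyond the 10 genes, the text names list genes past the threshold and a set of paralogues and standard targets, with others named as examples after their values were seen.

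Alternatives were DESeq2 1.42.0, RLE scaling, library totals, no filter, the replicate number as a block, GC and length offsets (splines, for the 17956 genes with a GC value), both together, and each library left out. Leaving out both replicates 2 was added after seeing the data. GC content came from GENCODE M21, which matched 99.41% of identifiers, and promoter windows came from RefSeq. The fitting was tested on simulated data. Single genes of the lists that are not named are counted but not reported here.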

Additional observations from a re-analysis of the deposited data

How the results depend on the processing

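Against 1149 genes called (252 higher, 897 lower), the replicate block with GC and length offsets called 1837 (715 higher), and leaving out 1 library gave 498 to 1326 (76 to 342 higher, 416 to 984 lower). Higher calls numbered 514 with library totals and 413 without a filter, and the share of calls that were lower went from 78.1% to 56.5% with totals, which moved the median of all genes from -0.003 to 0.043, and to 66.3% with GC and length offsets (61.1% with the block as well). Of the 4 receptor genes called, library totals kept 2 and leaving out 1 library 1 to 4. Rara was called in all 14 fits. Other nuclear receptors called went from 3 to 2 to 5 with 1 library left out and to 6 without both replicates 2. Glucocorticoid targets called went from 2 to 1 with DESeq2 or GC and length offsets, to 4 without a filter (3 lower, 1 higher) and to 1 to 2 with 1 library left out. Without both replicates 2, and without CBP-ifKO replicate 2, the 1 target called was Plin4, which was higher, and neither Per1 nor Dusp1 was called. The block with GC and length offsets called 3 targets, Per1 and Dusp1 as lower and Plin4 as higher. With 1 library left out, coregulators called ranged from 2 to 5, chaperones from 0 to 1, ligand genes from 0 to 2 and thyroid hormone targets from 1 to 2. Library totals gave 1 ligand gene, and DESeq2, library totals and both replicates 2 left out gave 1 thyroid hormone target each. The log2 fold change turned in sign, with none of these genes past the threshold, for Nr3c1 (-0.154 to 0.016 with 1 library left out), Rarb (-0.043 to 0.38, and -0.134 without both replicates 2), Sgk1 (-0.055 to 0.198), Tsc22d3 (-0.042 to 0.17), Rarg (-0.164 to 0.03, 0.09 with GC and length offsets, 0.093 with the block as well), Rxra (0.007 and 0.004 in the same pair of fits) and Rxrb (0.121 and 0.122, and 0.002 without both replicates 2). Rorb passed it without both replicates 2 (-0.299, adjusted p = 0.0246, edgeR). The cause of these shifts was not tested.

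Replicate numbers did not pair the libraries: deviations of same-numbered libraries correlated at 0.0769, 0.0369 and 0.00216 across genes. With the replicate number as a block, edgeR called 1210 genes, 1091 of them shared, and the same 4 receptor genes, while Dio3 was lost (adjusted p = 0.0678). With 3 libraries a group, small changes of scarce genes such as Rarb were not detectable.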
